A study of Homo sapiens with 33 samples.

Results

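The BTG/TOB antiproliferative family was followed through 33 RNA sequencing libraries of human acute lymphoblastic leukaemia (ALL) cell lines. Its members were found by gene symbol, and all 5 (BTG1, ENSG00000133639; BTG2, ENSG00000159388; BTG3, ENSG00000154640; TOB1, ENSG00000141232; TOB2, ENSG00000183864) were present among 62446 gene rows. The rule that picks them uses names alone, though the family was singled out with earlier results of these data known. All 5 were abundant enough to be tested in every comparison. The libraries form 11 groups of 3. Parental Nalm6, a B-cell precursor ALL line, was untreated, or exposed to 0.5 µM CHIR-99021 or 5 µM prednisolone, and a further untreated group accompanied cells given 100 nM dexamethasone. Nalm6 cells in which TLE1 had been targeted by CRISPR/Cas9 (TLE1 KO) were untreated, or exposed to 5 µM prednisolone or 100 nM dexamethasone. CEM, a T-cell ALL line, was untreated, or exposed to 2 µM CHIR-99021 or 10 µM prednisolone. Treatments lasted 24 h. CHIR-99021 inhibits the kinase GSK3 and is used as a Wnt agonist, prednisolone and dexamethasone are glucocorticoids, and TLE1 encodes a transcriptional co-repressor. Per the labels, the Nalm6 and knockout cells were kept in serum stripped with charcoal, a step that removes steroid hormones. Whether the knockout line is 1 clone or a pool is not given in the sources used here.

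BTG and TOB proteins slow cell division. They share an amino-terminal domain that binds the CAF1 deadenylases (CNOT7 and CNOT8) of the CCR4-NOT complex, the machine that shortens poly(A) tails and so starts messenger RNA decay. BTG1 and BTG2 have little beyond that domain, whereas TOB1 and TOB2 carry a long carboxy-terminal part that binds cytoplasmic poly(A)-binding protein. In lymphocytes BTG1 and BTG2 are known for holding resting T cells in quiescence and for recurrent mutation or deletion in B-lineage malignancies, BTG2 is a classical p53 target, and TOB1 restrains T-cell activation. BTG3 is known to bind and inhibit the transcription factor E2F1.

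The 250 bases upstream of the annotated start are shown for BTG1, BTG2 and BTG3, the 3 members that changed most with glucocorticoids in Nalm6 and the knockout, from RefSeq on GRCh38.p14, each 5′ to 3′ on the strand of its gene. Capitals mark matches, on either strand, to the CCAAT box (CCAAT), the half-site of the cyclic AMP response element (TGACG) and the TATA box (TATAAA). BTG1 lies at chr12:92145847-92146096, minus strand. BTG2 lies at chr1:203305269-203305518, plus strand. BTG3 lies at chr21:17612902-17613151, minus strand.
BTG1: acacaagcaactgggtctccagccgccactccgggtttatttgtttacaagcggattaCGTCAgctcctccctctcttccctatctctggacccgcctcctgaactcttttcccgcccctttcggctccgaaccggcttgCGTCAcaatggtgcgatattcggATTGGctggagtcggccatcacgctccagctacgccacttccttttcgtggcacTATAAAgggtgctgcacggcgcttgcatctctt
BTG2: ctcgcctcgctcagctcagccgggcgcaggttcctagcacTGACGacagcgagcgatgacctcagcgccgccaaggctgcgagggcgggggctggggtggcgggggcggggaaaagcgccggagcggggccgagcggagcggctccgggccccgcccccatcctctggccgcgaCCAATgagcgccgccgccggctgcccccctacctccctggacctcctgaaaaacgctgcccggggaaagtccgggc
BTG3: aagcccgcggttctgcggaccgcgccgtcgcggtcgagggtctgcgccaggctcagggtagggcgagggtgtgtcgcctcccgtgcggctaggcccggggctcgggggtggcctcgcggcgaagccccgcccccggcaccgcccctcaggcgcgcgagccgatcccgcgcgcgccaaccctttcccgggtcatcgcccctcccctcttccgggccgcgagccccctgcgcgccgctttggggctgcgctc

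The windows of BTG1 and BTG2 each held a CCAAT box, 87 and 76 bases upstream of the start, and a TGACG half-site, at 192 and 110 bases in BTG1 and at 210 bases in BTG2. Of 35116 RefSeq promoter windows of the same length, 32.0% held a CCAAT box and 21.2% a TGACG half-site. A TATA box stood 33 bases upstream in BTG1 (10.7% of all windows), as did a forkhead FOXO core, GTAAACA, at 209 bases (2.98% of all windows). The BTG3 window had neither a CCAAT box nor a TGACG half-site, and 78.4% of its bases were G or C against 56.4% in BTG1 and 74.8% in BTG2. The TOB genes did not follow that split. TOB1, in its window at chr17:50866355-50866604, held a CCAAT box at 186 bases and a TGACG half-site at 87. TOB2, which rose with glucocorticoids in Nalm6 and CEM, held neither. The GC box GGGCGG, which 42.6% of all windows hold, was in these windows of all 5. TOB1 has another annotated start, at whose window (chr17:50867979-50868228, 38.4% G or C) no CCAAT box, TGACG half-site or GC box was found. The letters of the glucocorticoid half-site, TGTTCT, were in none of the 5, and 12.4% of all windows hold them. These matches describe letters in short windows, and binding was not measured.

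Depth and identity of the libraries set the frame for the values. The gene total ran from 25.3 to 61.9 in units of 1000000 counts a library, and each member rested on at least 226 counts in every library. TLE1 transcripts, the check on the knockout label, were at 25.4, 24.0 and 24.0 CPM (counts per 1000000 gene counts of the library) in the untreated knockout and 30.2, 34.0 and 31.8 CPM in untreated Nalm6, a log2 fold change of -0.36 ± 0.06 (SE, adjusted p = 0.00200, edgeR). Transcript remained, and a transcript level does not test loss of the protein. TLE1 transcripts also rose with prednisolone in Nalm6 (log2 1.80 ± 0.05, adjusted p = 3.33e-15, edgeR) and in the knockout (1.31 ± 0.08, adjusted p = 1.09e-06). They averaged 113 and 62.5 CPM in those treated groups. With dexamethasone in Nalm6 they rose by 2.25 ± 0.04, and in CEM prednisolone left them uncalled (0.07 ± 0.03). Of the B-lineage genes, PAX5 and EBF1 were at 0.445 and 0.0172 CPM on average in untreated CEM, while MME, CD79A and IGLL1 were at 96.8, 30.3 and 29.9 CPM, each below Nalm6 (1066, 118 and 639 CPM). The 8 T-lineage markers summed to 1861 to 2038 CPM in CEM, 24.2 to 44.4 CPM in Nalm6 and 24.7 to 49.4 CPM in the knockout. The libraries carry different file naming: untreated, CHIR and prednisolone Nalm6 with untreated and prednisolone knockout form 1 set, dexamethasone Nalm6 with its untreated group and CEM another, and dexamethasone-treated knockout one more. The order of the sample records disagrees in 1 group, since prednisolone-treated Nalm6 is recorded next to the dexamethasone and CEM libraries, so that its set rests on file names. The untreated Nalm6 groups of the first 2 sets differed for 50.2% of genes (25.8% higher in the dexamethasone set, 24.4% lower), including BTG1 (0.22 ± 0.04 on the log2 scale, adjusted p = 3.94e-04) and BTG3 (-0.23 ± 0.06, adjusted p = 0.00509), so sets differed without any treatment.

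In untreated Nalm6, compared per kilobase (kb) of exon so that genes of different length can be ranked, BTG1 had the highest level of the family at 19.3 ± 0.602 CPM per kb (mean ± SD, n = 3). TOB2 (13.9 ± 0.560) and BTG2 (13.7 ± 1.59) followed and did not differ beyond their spread, and BTG3 (6.07 ± 0.158) and TOB1 (4.97 ± 0.172) were lowest on the same CPM per kb scale. In untreated CEM BTG3 moved to the top and TOB2 down: BTG3 led at 11.3 ± 0.409 CPM per kb, ahead of BTG1 (9.15 ± 0.351), BTG2 (8.80 ± 0.428), TOB2 (7.97 ± 0.322) and TOB1 (4.71 ± 0.350). BTG1 and BTG2 overlapped there. In the untreated knockout BTG2 (19.5 ± 1.30) and BTG1 (19.2 ± 0.774) were level in CPM per kb. With prednisolone BTG2 and BTG1 stood far above the rest in Nalm6, at 90.5 ± 1.30 and 82.4 ± 3.79 CPM per kb, while in CEM BTG1 (40.6 ± 0.113) stayed ahead of BTG2 (25.8 ± 0.793). The BTG3 level depended on the transcript taken as its length: with the longest transcript it was 9.42 CPM per kb in untreated Nalm6 and 17.6 in untreated CEM, and in prednisolone-treated CEM it moved from 8.44, below TOB2 (9.68), to 13.1, above it.

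**Figure D1:**
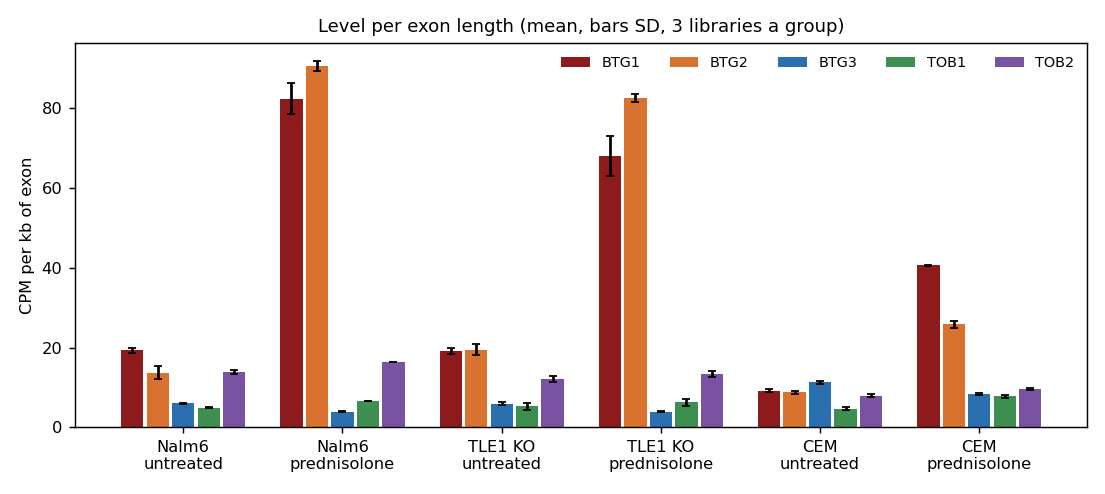
Mean level per kilobase of exon (y axis, CPM per kb, linear from 0) of the 5 members in untreated and prednisolone-treated Nalm6, TLE1 KO and CEM; error bars are SD over 3 libraries. BTG1 and BTG2 reach 82.4 and 90.5 in treated Nalm6 against 19.3 and 13.7 untreated, and BTG3 is the highest member only in untreated CEM, at 11.3.

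The lines differed at rest in 4 of 5 members when CEM was set against the untreated Nalm6 group of its own set, in a comparison where 77.5% of all genes were called (40.2% higher in CEM, 37.3% lower) at an adjusted p under 0.05 (edgeR's quasi-likelihood test with Benjamini-Hochberg adjustment over all genes tested, used throughout). BTG1 was at 45.9, 44.8 and 42.6 CPM in CEM and at 104, 106 and 103 CPM in Nalm6, a log2 fold change of -1.27 ± 0.04 (adjusted p = 1.47e-11). TOB2 (-0.82 ± 0.05, adjusted p = 4.24e-09) and BTG2 (-0.69 ± 0.05, adjusted p = 4.62e-08) were also lower in CEM. BTG3 was higher, at 25.1, 27.0 and 26.3 CPM against 11.5, 11.6 and 11.1 CPM, or 1.16 ± 0.06 (adjusted p = 9.62e-10). TOB1 was not called, at 0.01 ± 0.08, and its 95% interval of -0.16 to 0.18 leaves room for a difference of that size in either direction. The 2 lines differ in lineage, culture and much else, and these cannot be told apart here.

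Glucocorticoids raised 4 members and lowered 1 in Nalm6. BTG1, BTG2, TOB1 and TOB2 were higher and BTG3 lower after prednisolone and again after dexamethasone, each against untreated cells of its own set. The share of all genes called was large in both comparisons, 54.8% for prednisolone (28.7% higher, 26.1% lower) and 60.5% for dexamethasone (30.2% in each direction), so that being called says little by itself and the size of change is the informative quantity. The members' median log2 fold change was 0.38 under prednisolone and 0.74 under dexamethasone, beside 0.03 and 0.02 over all genes tested.

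BTG1 stood at 95.9, 95 and 90.4 CPM in untreated Nalm6 and at 397, 383 and 419 CPM with prednisolone. The groups were far apart, and the change was 4.18-fold (log2 2.06 ± 0.05, adjusted p = 5.27e-16), larger in size than that of all but 2.65% of genes. With dexamethasone BTG1 was at 447, 473 and 462 CPM beside 104, 106 and 103 CPM untreated, or 4.29-fold (log2 2.10 ± 0.04, adjusted p = 1.92e-14). In bulk RNA, more transcript per cell and more cells that express a gene cannot be told apart, here or below.

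BTG2, the member known as a p53 and stress-inducible target, rose most in Nalm6. It was at 32.9, 39.3 and 41.2 CPM untreated and 246, 250 and 253 CPM with prednisolone, a 6.48-fold change (log2 2.70 ± 0.06, adjusted p = 6.99e-16). It went from 38.5, 37.6 and 38.0 CPM to 309, 318 and 313 CPM with dexamethasone, an 8.03-fold change (log2 3.00 ± 0.04, adjusted p = 6.10e-16). Only 1.64% and 1.94% of genes changed by more in the respective comparisons. The dexamethasone-treated libraries held the highest BTG2 and BTG1 values of all 33, though the agents were given at different doses in different sets and their effects are not compared by a test.

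BTG3 moved the other way. It was at 14.1, 14.3 and 13.6 CPM in untreated Nalm6 and 9.23, 9.05 and 8.96 CPM with prednisolone (log2 -0.65 ± 0.06, adjusted p = 7.76e-08). With dexamethasone it fell from 11.5, 11.6 and 11.1 CPM to 5.78, 5.61 and 5.67 CPM, a 2.06-fold decrease (log2 -1.04 ± 0.07, adjusted p = 1.60e-08). The treated values lay below every untreated Nalm6 value of their set.

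The TOB genes changed less. TOB1 was at 12.1, 12.5 and 13 CPM untreated and 16.5, 16.5 and 17.0 CPM with prednisolone (log2 0.38 ± 0.06, adjusted p = 1.94e-05), and at 11.3, 11 and 12.2 CPM untreated against 20.4, 19.0 and 19.6 CPM with dexamethasone (log2 0.74 ± 0.06, adjusted p = 1.44e-07). TOB2 went from 60.5, 64.6 and 65.1 to 74.8, 74.9 and 75.2 CPM with prednisolone (log2 0.21 ± 0.04, adjusted p = 2.29e-04) and from 59.5, 64.0 and 64.5 to 89.9, 90.6 and 93.3 CPM with dexamethasone (log2 0.51 ± 0.04, adjusted p = 1.14e-07). Neither pair of groups overlapped, but 59.3% of genes changed by more than TOB2 under prednisolone.

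**Figure D2:**
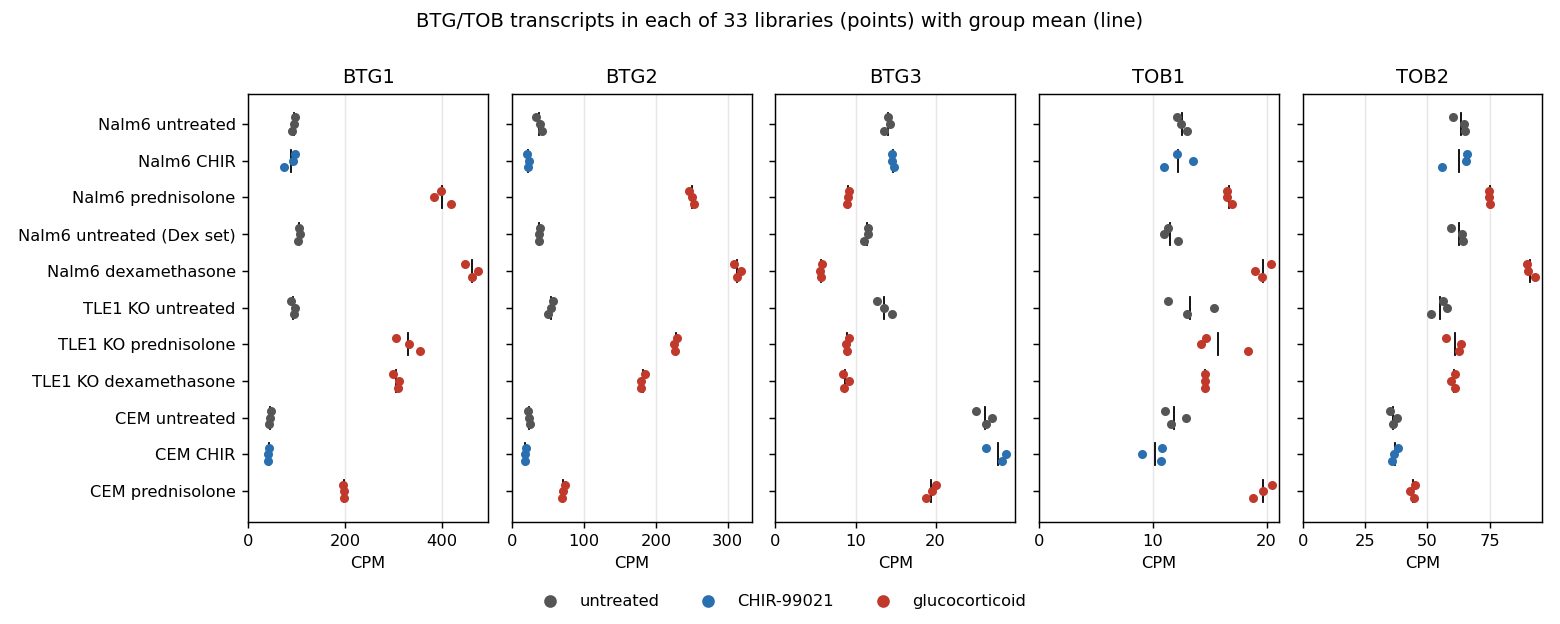
Level (x axis, CPM, linear from 0, a separate scale for each gene) of the 5 members in each library (points) by group (rows), with the group mean as a line; grey is untreated, blue CHIR-99021 and red a glucocorticoid. BTG1 and BTG2 are higher in every glucocorticoid-treated library than in any other library, from 196 CPM for BTG1 and 69.2 CPM for BTG2 in CEM upwards.

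In CEM, prednisolone moved all 5 members in the same directions as in Nalm6, with 45.1% of all genes called (22.3% higher, 22.8% lower) and a members' median of 0.70 beside 0.02 over all genes. BTG1 rose from 45.9, 44.8 and 42.6 CPM to 196, 197 and 197 CPM, or 4.34-fold (log2 2.12 ± 0.03, adjusted p = 4.23e-18), and only 0.817% of genes changed by more. BTG2 rose from 23.0, 24.4 and 25.4 CPM to 73.5, 70.6 and 69.2 CPM, or 2.88-fold (log2 1.52 ± 0.04, adjusted p = 7.28e-15). TOB1 rose from 11.1, 12.9 and 11.6 CPM to 20.5, 19.7 and 18.8 CPM (log2 0.70 ± 0.06, adjusted p = 9.27e-08). TOB2 rose by 0.25 ± 0.04 (adjusted p = 7.01e-05), from 35, 37.9 and 36.1 CPM to 45.0, 43.0 and 44.6 CPM. BTG3 fell from 25.1, 27.0 and 26.3 CPM to 20.1, 19.5 and 18.8 CPM (log2 -0.45 ± 0.05, adjusted p = 9.66e-07), and so stayed above every Nalm6 library even with the drug.

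The difference between the prednisolone responses of CEM and Nalm6 was tested as an interaction, in which 26.9% of all genes were called (14.7% higher in CEM, 12.2% lower). BTG2 responded less in CEM, by -1.16 ± 0.08 on the log2 scale (adjusted p = 9.39e-11), a 2.23-fold smaller rise. BTG1 gave no such difference: the estimate was 0.07 ± 0.06 (adjusted p = 0.511) and the 95% interval ran from -0.06 to 0.19. TOB1 rose more in CEM, by 0.33 ± 0.09 (adjusted p = 0.00718), a call lost at an adjusted p of 0.0760 when all 33 libraries were fitted together. BTG3 differed by 0.21 ± 0.08 (adjusted p = 0.0459), a smaller fall in CEM, but that call held in only 2 of 12 fits that each left out 1 library (adjusted p 0.0333 to 0.151). TOB2 was at 0.05 ± 0.06 (adjusted p = 0.628). With the untreated Nalm6 group of the dexamethasone set as control, a setting chosen after seeing the data, BTG2 stayed called (-1.07, adjusted p = 1.82e-11) and TOB1 too (0.28, adjusted p = 0.0292), but BTG1 became called (0.30, adjusted p = 8.48e-04) and BTG3 was at -0.00. The doses, 10 µM in CEM and 5 µM in Nalm6, and the library sets differ along with the lines, so that these cannot be told apart.

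In TLE1 KO cells prednisolone raised BTG1 and BTG2 and lowered BTG3, while TOB1 and TOB2 were not called, where 41.7% of all genes were (19.8% higher, 21.9% lower). BTG1 went from 89.1, 96.5 and 93.8 CPM to 305, 331 and 354 CPM, or 3.44-fold (log2 1.78 ± 0.07, adjusted p = 4.14e-08). BTG2 went from 57.3, 54.0 and 50.2 CPM to 230, 225 and 227 CPM, or 4.11-fold (log2 2.04 ± 0.07, adjusted p = 8.70e-09). BTG3 went from 12.7, 13.6 and 14.5 CPM to 9.21, 8.77 and 8.90 CPM (log2 -0.64 ± 0.09, adjusted p = 3.60e-04). TOB1 overlapped between groups, at 11.3, 15.4 and 13 CPM untreated and 14.7, 14.2 and 18.4 CPM treated, with an estimate of 0.21 ± 0.13 (adjusted p = 0.234). TOB2 also overlapped, with an estimate of 0.11 ± 0.06 (adjusted p = 0.211). The members' median was 0.21 beside -0.00 over all genes.

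Set against the parental response at the same dose, within 1 set by file names, the knockout's response differed for BTG2 alone among the 5 members, in an interaction where 3.48% of all genes were called (1.10% with a higher response in the knockout, 2.38% with a lower one). The BTG2 difference was -0.63 ± 0.10 (95% interval -0.84 to -0.42, adjusted p = 0.00143), and 9.72% of genes differed by more. It stayed called in all 12 fits that each left out 1 library, with adjusted p up to 0.00666, although the count of genes called over the whole interaction, 624, fell to 361, 369 or 375 without untreated Nalm6 replicate 1, 2 or 3 and rose to 1852 without untreated knockout replicate 3. With the other untreated Nalm6 group as the parental control BTG2 was again the member called (-0.54, adjusted p = 1.21e-04), among 4345 genes called, or 24.6%. The starting levels also differed: untreated knockout cells held BTG2 at 57.3, 54.0 and 50.2 CPM, all above the 32.9 to 41.2 CPM of untreated Nalm6 (0.53 ± 0.09, adjusted p = 0.00167). After prednisolone the knockout reached 225 to 230 CPM and Nalm6 246 to 253 CPM. BTG1 gave an estimate of -0.26 ± 0.09 that was not called (adjusted p = 0.139, 95% interval -0.45 to -0.07). BTG3 (0.04 ± 0.11), TOB1 (-0.15 ± 0.15) and TOB2 (-0.08 ± 0.08) were not called either, and the interval for TOB1, -0.47 to 0.17, includes a loss of the whole parental rise.

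Besides BTG2, TOB2 was called between the untreated lines, where 27.1% of all genes were called (15.3% higher in the knockout, 11.8% lower). It was at 56.2, 57.9 and 51.5 CPM in the knockout and 60.5, 64.6 and 65.1 CPM in Nalm6 (-0.18 ± 0.06, adjusted p = 0.0479). That call was lost without untreated Nalm6 replicate 1 (adjusted p = 0.0694), 2 (0.152) or 3 (0.170) or untreated knockout replicate 1 (0.0661), and with counts that ignore strand (0.0840). BTG1 (0.01 ± 0.05), BTG3 (-0.02 ± 0.07) and TOB1 (0.10 ± 0.11) were not called. The count of genes called in this comparison, 4655, was 2804, 2847 and 2939 without untreated Nalm6 replicates 1, 2 and 3.

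Dexamethasone-treated knockout cells have no untreated group of their own set. Their levels were 298, 310 and 309 CPM for BTG1, 185, 180 and 180 CPM for BTG2, 8.39, 9.13 and 8.60 CPM for BTG3, 14.6 CPM in each library for TOB1, and 61.2, 59.7 and 61.2 CPM for TOB2. BTG1 and BTG2 thus lay well above the untreated knockout and below dexamethasone-treated Nalm6. After subtraction of the difference between the 2 untreated Nalm6 groups, a contrast in which 40.0% of genes were called (18.5% higher, 21.5% lower), BTG1 was higher by 1.51 ± 0.06 (adjusted p = 1.04e-10), BTG2 by 1.69 ± 0.10 (adjusted p = 3.64e-09) and BTG3 lower, at -0.40 ± 0.10 (adjusted p = 0.00350, or 0.0663 with counts that ignore strand). TOB2 gave 0.11 ± 0.07 (adjusted p = 0.280). TOB1 gave 0.22 ± 0.13 (adjusted p = 0.188), and was called at 0.36 without untreated knockout replicate 2 (adjusted p = 0.0128). The subtraction takes the dexamethasone set of the parental line to stand for the knockout's set, which was not tested.

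**Figure D3:**
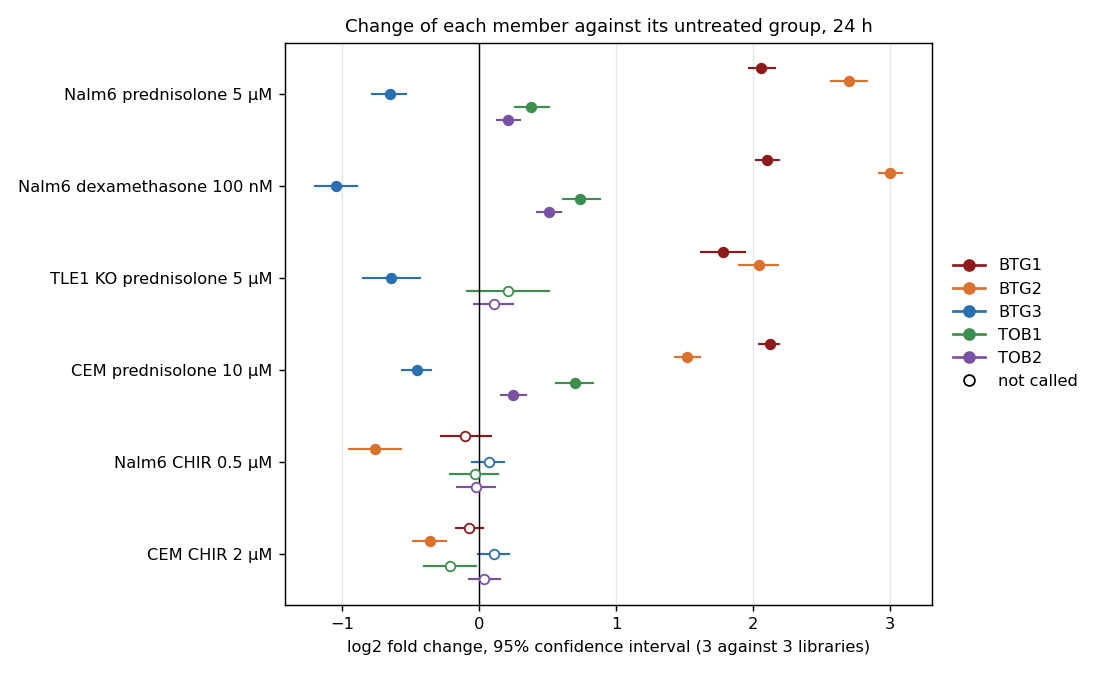
Log2 fold change against the untreated group (x axis) with its 95% confidence interval for the 5 members in 6 treatment comparisons (rows, 3 against 3 libraries each); filled points passed an adjusted p of 0.05 and open points did not. BTG1 lies between 1.78 and 2.12 in all 4 glucocorticoid comparisons, BTG2 ranges from 1.52 to 3.00, BTG3 is below 0 in all 4, and under CHIR-99021 BTG2 alone is filled.

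CHIR-99021 lowered BTG2 and did not change the other 4 members past the threshold in either line. In Nalm6 BTG2 was at 32.9, 39.3 and 41.2 CPM untreated and 20.7, 23.7 and 22.2 CPM with 0.5 µM CHIR-99021, a 1.70-fold decrease (log2 -0.76 ± 0.08, adjusted p = 7.05e-04). The groups did not overlap, 7.88% of all genes were called (3.16% higher, 4.72% lower), and only 1.62% of genes changed by more. In CEM BTG2 was at 23.0, 24.4 and 25.4 CPM untreated and 19.0, 18.7 and 18.1 CPM with 2 µM CHIR-99021, a 1.29-fold decrease (log2 -0.36 ± 0.05, adjusted p = 0.00131), where 10.8% of all genes were called (5.41% higher, 5.43% lower) and 10.5% changed by more. BTG2 stayed called in all 6 fits that each left out 1 library in both lines, with changes from -0.85 to -0.69 in Nalm6 and from -0.40 to -0.33 in CEM.

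The other members' estimates under CHIR-99021 were small. In Nalm6 they were -0.10 for BTG1 (95% interval -0.28 to 0.09), 0.07 for BTG3 (-0.05 to 0.18), -0.03 for TOB1 (-0.21 to 0.14) and -0.02 for TOB2 (-0.16 to 0.12). CHIR-treated Nalm6 replicate 3 was the lowest of its group for BTG1 (73.8 CPM beside 96.7 and 92.8), TOB1 (11 beside 12.1 and 13.5) and TOB2 (56.0 beside 66.0 and 65.6). Without it the estimates were 0.02, 0.05 and 0.06, still uncalled, and the count of genes called rose from 1425 to 2708. That count was 428 and 409 without untreated replicates 2 and 3, 779 without untreated replicate 1 and 820 without CHIR-treated replicate 1. In CEM the estimates were -0.07 for BTG1 (-0.17 to 0.03), 0.11 for BTG3 (-0.01 to 0.22), -0.21 for TOB1 (-0.40 to -0.02, adjusted p = 0.160) and 0.04 for TOB2 (-0.07 to 0.15), and the 1865 genes called fell to 1136, 1104 or 1064 without untreated replicate 1, 2 or 3 and to 1001 without CHIR-treated replicate 2.

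Whether BTG2 fell more in Nalm6 than in CEM was not settled. The difference of responses, CEM minus Nalm6, was 0.40 ± 0.11 (95% interval 0.17 to 0.64, adjusted p = 0.108) in a test that called 1.17% of genes (0.630% higher, 0.545% lower). It was called without untreated Nalm6 replicate 1, the library with the lowest untreated BTG2 value (0.49, adjusted p = 0.0140), and by DESeq2 (0.40, adjusted p = 0.0304). Dropping the filter and fitting all 33 libraries together also called it, so that 3 of 7 other settings did. The other 4 members were not called by any setting. The CHIR-99021 doses, 0.5 µM in Nalm6 and 2 µM in CEM, differed between the lines.

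**Figure D4:**
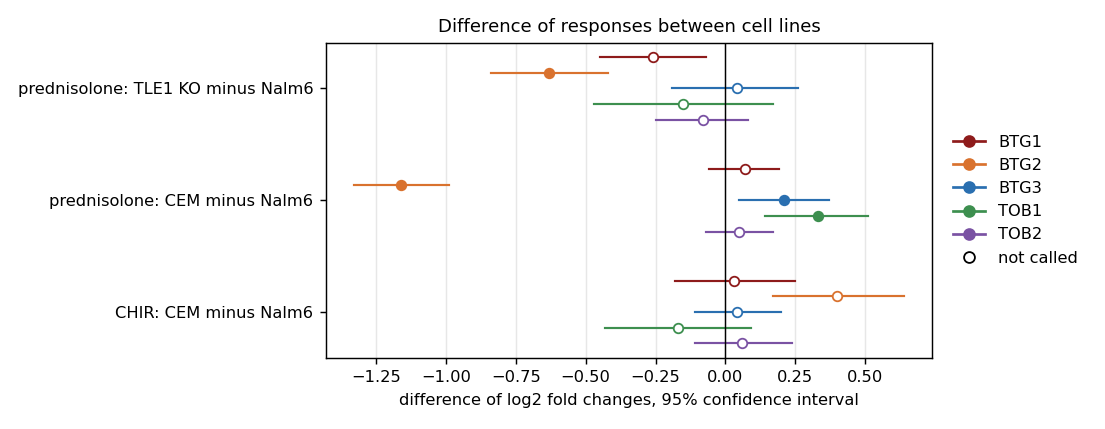
Difference of log2 fold changes between cell lines (x axis) with its 95% confidence interval for the 5 members in 3 contrasts (rows); filled points passed an adjusted p of 0.05. BTG2 is the member furthest from 0 in each row, at -0.63, -1.16 and 0.40, and the last of these is open.

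Across the 11 group means of log2 CPM, BTG1 and BTG2 varied together (Pearson r = 0.96) and BTG3 ran opposite to BTG1 (r = -0.88), BTG2 (r = -0.85) and TOB2 (r = -0.94). TOB1 followed BTG1 (r = 0.83) more closely than it followed TOB2 (r = 0.45). These values describe 11 points that share 3 lines and a few treatments, and they carry no test. Among 11236 genes with enough counts, the ones closest to BTG1 were CD53 (r = 0.990), a tetraspanin of leukocytes, BMF (r = 0.987), a BH3-only protein of the BCL2 family, and BTG1-DT (r = 0.981), the transcript that diverges from BTG1. BTG2 was closest to TEPSIN (r = 0.986), TP53INP1 (r = 0.983) and LEPROT (r = 0.982). BTG3 was closest to KIF21B (r = 0.993), a kinesin, KLHL23 (r = 0.992) and HNRNPR (r = 0.991), an RNA-binding protein. TOB1 was closest to DDIT4 (r = 0.975), SESN1 (r = 0.956) and FKBP5 (r = 0.956), and DDIT4 and FKBP5 are known glucocorticoid-induced genes. TOB2 was closest to MTMR14 (r = 0.978), SNX11 (r = 0.973) and UBE2Q1 (r = 0.971).

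The group order of each member shows where neighbours could not be separated. BTG1 ran from 461 CPM on average in dexamethasone-treated Nalm6 to 41.9 CPM in CHIR-treated CEM, an 11-fold range, and BTG2 from 313 to 18.6 CPM, a 16.9-fold range. All 5 glucocorticoid-treated groups held the top 5 places for BTG1 and BTG2, and of their neighbours only prednisolone- and dexamethasone-treated knockout overlapped, for BTG1. Untreated knockout followed them for BTG2, and untreated CEM (24.3 CPM) and CHIR-treated Nalm6 (22.2 CPM) overlapped. BTG3 ran from 27.8 CPM in CHIR-treated CEM to 5.69 CPM in dexamethasone-treated Nalm6, a 4.89-fold range, with the 3 CEM groups on top. TOB2 spanned 2.51-fold, and the 3 CEM groups were its lowest. TOB1 spanned 1.94-fold, from 19.7 to 10.1 CPM, and most of its neighbouring groups overlapped.

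Transcripts that neighbour the family were read separately. BTG1-DT, which starts beside BTG1 on the other strand, was at 1.23, 0.857 and 1.22 CPM in untreated Nalm6 and 5.50, 5.28 and 6.16 CPM with prednisolone (log2 2.32 ± 0.14, adjusted p = 3.48e-10), and it also rose with dexamethasone in Nalm6 (1.65 ± 0.12, adjusted p = 2.34e-08), in the knockout (1.33 ± 0.19, adjusted p = 3.06e-04) and in CEM (1.67 ± 0.17, adjusted p = 4.50e-07). Its response was smaller in the knockout than in Nalm6 (-0.97 ± 0.26, adjusted p = 0.0454), and its untreated level was higher there (0.69 ± 0.21, adjusted p = 0.0343). BTG1-DT also differed between the untreated Nalm6 groups, being higher in the dexamethasone set (0.76 ± 0.17, adjusted p = 0.00244). That group was at 1.69 to 1.93 CPM and overlapped the untreated knockout at 1.35 to 2.02 CPM. Both knockout differences thus rest on the untreated Nalm6 group used, and the other was not tried for BTG1-DT. BTG2-DT rested on 7 to 16 counts a library in untreated Nalm6 and 20 to 54 with a glucocorticoid. It rose with prednisolone in Nalm6 (2.10 ± 0.27, adjusted p = 3.66e-06) and the knockout (1.59 ± 0.34, adjusted p = 0.00365) and was not called in CEM (0.09 ± 0.32, adjusted p = 0.844), and the difference between CEM and Nalm6 was itself called (-2.0 ± 0.42, adjusted p = 7.26e-04). TOB1-AS1 rose in all 4 glucocorticoid comparisons, by 0.94 to 1.29, while BTG3-AS1 was not called in any of them by edgeR (adjusted p 0.165 to 0.674). Counts on the strand opposite to TOB1 were 5.12% to 18.9% as many as its own, and at most 2.06% for the other 4 members. The oocyte paralog BTG4 and the copies BTG1P1 and TOB2P1 had at most 4 counts in any library and BTG3P1 had 0, which allows up to 3 counts. These tests were added after the levels had been seen.

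The deadenylase machinery that the family recruits held genes of both directions, and under glucocorticoids their changes were smaller than those of BTG1 and BTG2. Of 12 CCR4-NOT subunits, 2 rose and 6 fell with prednisolone in Nalm6, where 28.7% of all genes rose and 26.1% fell. With dexamethasone 4 rose and 5 fell (30.2% of all genes each way). In the knockout 1 rose and 5 fell (19.8% and 21.9%), and in CEM also 1 and 5 (22.3% and 22.8%). Falls outnumbered rises in each comparison, and nothing further is read from counts of so few genes. CNOT9, a core subunit, fell in each of the 4, for example from 176 ± 0.501 to 136 ± 2.66 CPM with prednisolone in Nalm6 (log2 -0.41 ± 0.03, adjusted p = 2.44e-08) and at -0.48 ± 0.07 in the knockout (adjusted p = 3.09e-04), where the subunit TNKS1BP1 was at -0.47 ± 0.09. In CEM both were at -0.18. TNKS1BP1 did not fall throughout, since it rose with dexamethasone in Nalm6 (0.17 ± 0.06, adjusted p = 0.0144). Its untreated level was also higher in the knockout, at 63.9 ± 8.03 CPM beside 45.2 ± 1.83 CPM in Nalm6 (0.53 ± 0.08, adjusted p = 0.00171). The CAF1 deadenylases that BTG and TOB proteins bind are given for that role. CNOT8 fell by 0.33 on the log2 scale with dexamethasone (adjusted p = 1.34e-05) and was not called with prednisolone in Nalm6 (-0.05), the knockout (0.02) or CEM (0.03). CNOT7 fell with prednisolone (-0.15 ± 0.04) and dexamethasone (-0.19 ± 0.04) in Nalm6 and in CEM (-0.10 ± 0.03), and was not called in the knockout (-0.01 ± 0.09). The list's median was -0.08 in both Nalm6 comparisons, beside 0.03 and 0.02 over all genes. Under CHIR-99021 1 of 12 subunits fell in each line, where 4.72% of all genes fell in Nalm6 and 5.43% in CEM. They were CNOT6L in Nalm6 (-0.25 ± 0.06, adjusted p = 0.0224) and TNKS1BP1 in CEM (-0.23 ± 0.05, adjusted p = 0.0155). PAN2, the catalytic subunit of the other main deadenylase, rose with prednisolone in Nalm6 (0.40 ± 0.04), the knockout (0.53 ± 0.06) and CEM (0.16 ± 0.03), and with dexamethasone (0.45 ± 0.04), and fell with CHIR-99021 in Nalm6 (-0.25 ± 0.04, adjusted p = 0.00602).

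Of 15 RNA-binding proteins measured that bring CCR4-NOT to chosen messengers, 9 rose and 2 fell with prednisolone in Nalm6, where 28.7% of all genes rose and 26.1% fell. With dexamethasone 10 rose and 1 fell (30.2% of all genes each way), in the knockout 6 rose and 2 fell (19.8% and 21.9%), and in CEM 7 rose and 2 fell (22.3% and 22.8%). ZFP36L2, which binds AU-rich elements and is known for restraining the cell cycle of developing lymphocytes, led in all 4 comparisons. It went from 62.8 ± 5.83 to 164 ± 8.19 CPM with prednisolone in Nalm6 (1.36 ± 0.06, adjusted p = 2.47e-12), from 55.5 ± 7.95 to 254 ± 7.72 CPM with dexamethasone (2.17 ± 0.07, adjusted p = 7.70e-12), from 55.4 ± 10.3 to 129 ± 22.5 CPM in the knockout (1.18 ± 0.14, adjusted p = 9.07e-05) and from 126 ± 15 to 389 ± 11.5 CPM in CEM (1.60 ± 0.06, adjusted p = 2.74e-13). Its paralog ZFP36L1 fell with both agents in Nalm6 (-0.35 ± 0.05 and -0.29 ± 0.09) and in the knockout (-0.56 ± 0.10). CPEB2, which binds cytoplasmic polyadenylation elements, rose in all 4 as well, by 0.51 to 1.34. The list's medians were 0.20, 0.41, 0.12 and 0.07, beside 0.03, 0.02, -0.00 and 0.02 over all genes.

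**Figure D5:**
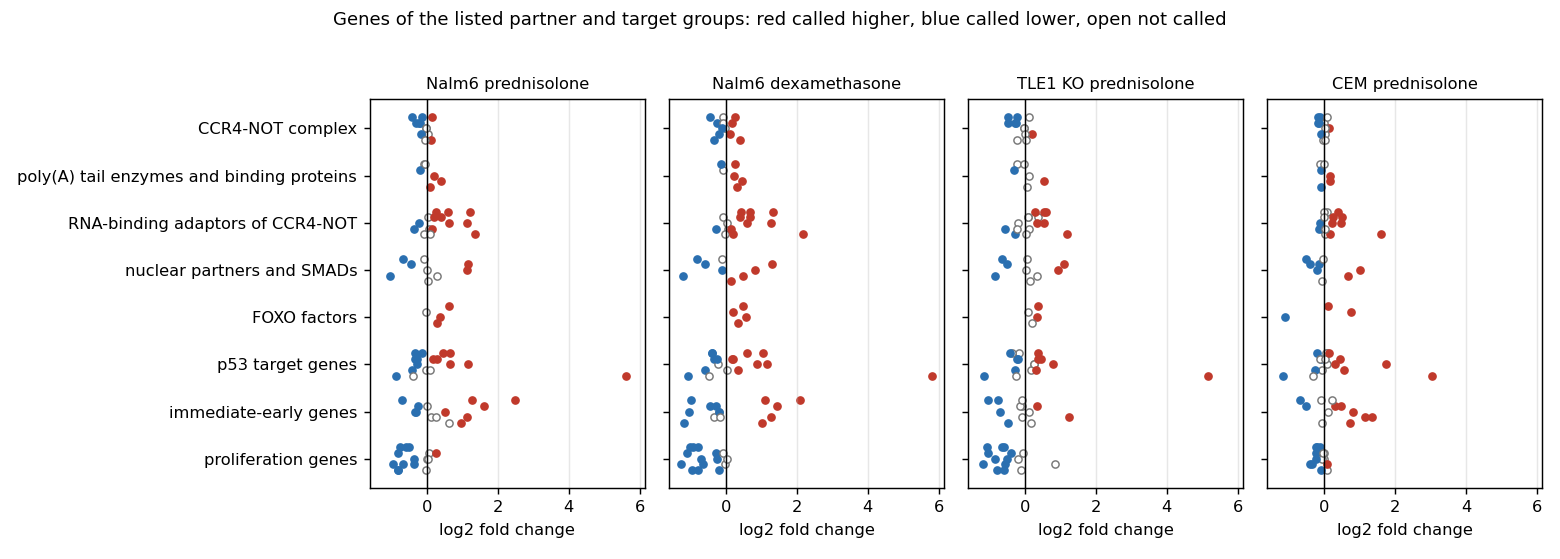
Log2 fold change (x axis) of each tested gene (points) of 8 lists of partners and related genes (rows) in 4 glucocorticoid comparisons (panels); red passed the test and was higher, blue passed and was lower, open did not pass. The p53 targets lie on both sides of 0 with TP53INP1 far to the right (5.62, 5.80, 5.16 and 3.05), and the proliferation genes in Nalm6 and TLE1 KO lie mostly to the left.

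Among the nuclear partners, PRMT1, the arginine methyltransferase that binds BTG1 and BTG2, fell in every glucocorticoid comparison, from 327 ± 11 to 209 ± 7.85 CPM with prednisolone in Nalm6 (-0.67 ± 0.04, adjusted p = 4.22e-10), and by -0.82 ± 0.04 with dexamethasone, -0.65 ± 0.07 in the knockout and -0.51 ± 0.03 in CEM. TOB proteins are known to restrain BMP signals, which SMAD1, SMAD5 and SMAD9 transmit and the inhibitory SMAD6 and SMAD7 block. SMAD1 rose from 184 ± 2.24 to 420 ± 15.9 CPM (1.16 ± 0.04) and SMAD7 from 15.8 ± 0.604 to 35.1 ± 0.766 CPM (1.13 ± 0.05) with prednisolone in Nalm6, while SMAD9 (-1.02 ± 0.08) and SMAD6 (-0.44 ± 0.09) fell. In all, 2 of 9 rose and 3 fell there (28.7% and 26.1% of all genes), with a median of 0.02 beside 0.03 over all genes. Those counts lie near the shares of all genes, and nothing is read from them. With CHIR-99021 SMAD1 (-0.47 ± 0.05, adjusted p = 4.14e-04) and SMAD7 (-0.27 ± 0.06, adjusted p = 0.0239) fell in Nalm6.

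FOXO factors are known activators of BTG1. FOXO1 went from 83.1 ± 1.58 to 132 ± 1.89 CPM with prednisolone in Nalm6 (0.64 ± 0.04, adjusted p = 2.09e-10) and to 63.7 ± 2.91 CPM with CHIR-99021 (-0.38 ± 0.04, adjusted p = 9.52e-04), the same untreated libraries serving both. FOXO4 did likewise, at 0.38 ± 0.07 and -0.40 ± 0.07. Its level differed between the 2 untreated Nalm6 groups, at 13.2 ± 1.09 CPM in the dexamethasone set and 9.70 ± 0.488 CPM here (0.50 ± 0.07, adjusted p = 1.59e-04). Prednisolone-treated Nalm6 was at 12.8 ± 0.593 CPM, so that the FOXO4 rise depends on the untreated group used. Of 4 FOXO genes tested in Nalm6, 3 rose with prednisolone, FOXO4 among them (28.7% of all genes). With dexamethasone 4 rose (30.2%), and with CHIR-99021 3 fell (4.72%). In the knockout 2 of 4 rose with prednisolone (19.8% of all genes). In CEM 2 of 3 rose with prednisolone and 1 fell (22.3% and 22.8% of all genes). The 1 that fell, FOXO6, averaged 0.477 CPM untreated and 0.225 CPM treated (-1.11 ± 0.35, adjusted p = 0.0152) and is named after its values were seen. With CHIR-99021 1 of 3 fell there (5.43% of all genes). In CEM FOXO4 rose with prednisolone (0.76 ± 0.05, adjusted p = 3.28e-09) and fell with CHIR-99021 (-0.45 ± 0.06, adjusted p = 5.27e-04). FOXO1 was not among the genes tested in CEM. FOXO3, also named after its values were seen, was not called with prednisolone in Nalm6 (-0.02 ± 0.04, adjusted p = 0.659) or the knockout (0.08 ± 0.06, adjusted p = 0.296). It rose with dexamethasone (0.19 ± 0.05) and fell with CHIR-99021 (-0.27 ± 0.04) in Nalm6. BTG2 showed both directions in both lines, and BTG1 only the rise. A link between FOXO and BTG levels was not tested.

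The p53 targets, of which BTG2 is a classical example kept out of the list, held genes of both directions. With prednisolone in Nalm6 7 of 17 rose and 7 fell (median -0.01; 28.7% of all genes rose and 26.1% fell). With dexamethasone 8 rose and 6 fell (0.04; 30.2% each way), in the knockout 6 rose and 5 fell (0.18; 19.8% and 21.9%), and in CEM 6 rose and 4 fell (0.05; 22.3% and 22.8%). TP53INP1, which promotes autophagy and cell death, went from 10.6 ± 0.455 to 534 ± 9.23 CPM with prednisolone in Nalm6 (5.62 ± 0.05, adjusted p = 4.03e-21) and from 3.91 ± 0.174 to 33 ± 1.88 CPM in CEM (3.05 ± 0.07, adjusted p = 3.07e-16). GADD45A (1.15 ± 0.06) rose with it in Nalm6. CDKN1A, the gene of the cell-cycle inhibitor p21, went down from 112 ± 2.34 to 62.6 ± 2.39 CPM (-0.86 ± 0.04, adjusted p = 2.26e-11), as did MDM2, from 543 ± 7.35 to 417 ± 3.72 CPM (-0.41 ± 0.03, adjusted p = 2.22e-08). With CHIR-99021, where BTG2 fell in Nalm6, CDKN1A rose (0.26 ± 0.04, adjusted p = 0.00300) and BBC3 fell (-0.82 ± 0.10, adjusted p = 0.00144).

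Immediate-early genes, a class to which BTG2 is often assigned, were mixed. With prednisolone in Nalm6 6 of 14 rose and 4 fell (28.7% and 26.1% of all genes), and with dexamethasone 5 rose and 6 fell (30.2% each way). In the knockout 2 of 12 rose and 4 fell (19.8% and 21.9%), and in CEM 6 of 12 rose and 2 fell (22.3% and 22.8%). FOS rose from 1.18 ± 0.120 to 6.73 ± 0.569 CPM (2.49 ± 0.12, adjusted p = 1.53e-11) and ATF3 fell (-0.70 ± 0.09, adjusted p = 2.20e-06). In the interaction between knockout and parental cells, 6 of 14 had a lower response in the knockout (median -0.62 beside 0.00), with 3.48% of all genes called in either direction. JUN and FOSB led, at -1.32 and -1.41, next to -0.63 for BTG2.

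Genes of proliferation, the process that the family is known to restrain, went down with glucocorticoids in Nalm6. Of 15 measured, 10 fell and 1 rose with prednisolone (median -0.51), where 26.1% of all genes fell. With dexamethasone 12 fell (-0.71, 30.2% of all genes), in the knockout 11 fell (-0.58, 21.9%), and in CEM 8 of 14 fell and 1 rose (-0.09, 22.8%). PCNA, the DNA polymerase clamp, went from 478 ± 8.68 to 254 ± 18.6 CPM with prednisolone in Nalm6 (-0.94 ± 0.05, adjusted p = 3.36e-11) and from 429 ± 22.2 to 185 ± 2.44 CPM with dexamethasone (-1.25 ± 0.05, adjusted p = 1.82e-11). CCND3, the cyclin D3 gene, fell in Nalm6 with prednisolone (-0.81 ± 0.04) and with CHIR-99021 (-0.40 ± 0.05, adjusted p = 0.00104), and in CEM with prednisolone (-0.40 ± 0.03) and CHIR-99021 (-0.31 ± 0.04, adjusted p = 6.19e-04). The share of dividing cells was not measured, and its part in the members' changes was not tested.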

How the data were processed

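Gene counts from 33 RNA sequencing libraries were analysed. Raw counts of reads, 1 value a gene, are what was deposited; their 3 columns (no strand, each strand) follow the format of STAR's gene counts. The submitters' processing notes name Bowtie2, DESeq2 and hg19 without saying what each did; the aligner settings and annotation version are not given in the sources used here. Gene IDs mostly carry the mark of records lifted to an older build, so no coordinates of the counted genes are printed. Column 4 was used, because it held 12.3 to 15.3 times the gene total of column 3. The 4 rows of unassigned reads stayed out of totals and tests: unmapped reads were 2.84% to 11.2%, reads outside genes 18.4% to 32.7%, multiply mapped 4.83% to 7.55% and ambiguous 4.70% to 7.45% of a library. Uniquely mapped reads alone are counted in this layout, so near-identical copies can lose reads.

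Groups and replicate numbers came from the sample titles. The labels' treatment protocol assigns the agents to the lines differently from the titles and the series text, and the titles were followed. Replicates are independent experiments per the series text, and no pair of replicates agreed within sampling noise (chi-square per degree of freedom 1.77 to 39.0, highest for the pairs with CHIR-treated Nalm6 replicate 3).

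Levels are counts scaled to a library's gene total of 1000000 (CPM). CPM per kb divides by merged exon length from GENCODE v29, used for lengths only. Each comparison was fitted on its own groups with edgeR 4.0.16 in R 4.3.3 (filterByExpr, TMM, quasi-likelihood F test), adjusted by Benjamini-Hochberg over all genes tested and called under 0.05. Standard errors derive from the F statistic. Fits were tested on simulated data. Pearson r values run over 11 group means of log2 CPM with a prior count of 1, computed here from the deposited counts. Symbols matched 40641 of 62446 IDs, and all 5 members matched a RefSeq promoter. 9 motifs were searched.

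All members are named throughout. From each list, at most the 2 largest rises and 2 largest falls among called genes with an average log2 CPM of at least 1 are named in a comparison, and for each member the 3 genes of highest r. The members, lists and motifs were chosen with earlier results of these data known. The listed genes are 12 CCR4-NOT subunits, 6 poly(A) tail enzymes and binding proteins, 16 RNA-binding adaptors, 10 nuclear partners and SMADs, 4 FOXO factors, 17 p53 targets, 14 immediate-early genes and 16 proliferation genes, of which those that passed the filter are counted. The sum of the B-lineage markers is not reported here. Alternatives were DESeq2 1.42.0, RLE scaling, dropping the filter, a minimum of 10 counts in each library, a block for replicate number, column 2 (unstranded), all 33 libraries fitted together, leaving out each library and, for levels, the longest transcript. Another control for prednisolone-treated Nalm6, the untreated group of the dexamethasone set, was added after seeing the data.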

Additional observations from a re-analysis of the deposited data

Results flagged for a closer look

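In 4 cases the prednisolone response of a member differed between cell lines by a test of the difference itself. BTG2 responded less in TLE1 KO than in parental Nalm6, by -0.63 on the log2 scale (adjusted p = 0.00143, edgeR). The treated knockout libraries were at 225 to 230 CPM and the untreated ones at 50.2 to 57.3 CPM. Parental Nalm6 was at 246 to 253 CPM treated and 32.9 to 41.2 CPM untreated. The untreated lines thus also differed, by 0.53 ± 0.09 on the log2 scale. BTG2 also responded less in CEM than in Nalm6, by -1.16 (adjusted p = 9.39e-11). TOB1 rose more in CEM, by 0.33 (adjusted p = 0.00718), a call lost with all 33 libraries fitted together (0.0760). BTG3 fell less there, by 0.21 (adjusted p = 0.0459), a call that held in only 2 of 12 fits that each left out 1 library and in 2 of 8 other settings. The CEM comparisons also differ in dose and library set. No outlier test was run, since every group has 3 libraries. CHIR-treated Nalm6 replicate 3 stood apart from the others of its group (chi-square per degree of freedom 37.5 and 39.0, against 5.26 between the other pair).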

How the results depend on the processing

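The calls of BTG1, BTG2 and BTG3 in the 4 glucocorticoid comparisons and of BTG2 in both CHIR-99021 comparisons held under every alternative run and without each library in turn. Scaling by RLE changed no call of a member and moved the median of all genes by less than 0.1. Members called between untreated knockout and Nalm6 dropped from 2 to 1 with the replicate block (TOB2, adjusted p = 0.0932) and with column 2 (1 member, TOB2), in the CEM and Nalm6 difference under prednisolone from 3 to 1 with all 33 libraries together, and in that under CHIR-99021 rose from 0 to 1 (BTG2) by DESeq2, with no filter and with all 33 libraries together, the last at an adjusted p of 0.0124; BTG2 there has an adjusted p from 8.58e-04 to 0.109 over these settings. The BTG3 difference between CEM and Nalm6 under prednisolone lost its call by DESeq2 (0.0646), with no filter (0.116), with the replicate block (0.0605), with column 2 (0.0673) and with all libraries together (0.0668). With the untreated Nalm6 group of the dexamethasone set as control of prednisolone-treated Nalm6, chosen after seeing the data, all 5 members stayed called in Nalm6, 4345 genes were called in the knockout interaction, BTG3 there changed sign (-0.18, adjusted p = 0.261), and in the CEM and Nalm6 difference BTG1 was called (0.30) and BTG3 was not (-0.00). Correlations of same-numbered deviations ran from -0.35 to 0.31. Every sample was closest to its own number in 4 of 13 comparisons, some of which reuse the same groups. With 3 libraries a group, these values cannot tell whether same-numbered samples share more than the number. Genes called with CHIR-99021 in Nalm6 went from 1425 to 2320 with no filter and 925 with the replicate block; in the knockout interaction from 624 to 981 with no filter, 346 with the block and 1277 with all libraries together; and in the CHIR-99021 difference from 235 to 413 by DESeq2 and 473 with no filter. Leaving out 1 library gave 409 to 2708 genes for CHIR-99021 in Nalm6, 1001 to 1948 in CEM, 2804 to 6732 and 1 to 2 members between the untreated Nalm6 lines, 361 to 1852 in the knockout interaction, 149 to 388 genes and 0 to 1 member in the CHIR-99021 difference, 2 to 3 members in the prednisolone difference and 3 to 4 in the dexamethasone contrast of the knockout. Other estimates that changed sign were all uncalled and near 0. With column 2 they were BTG1 between knockout and Nalm6 (-0.00) and TOB1 between CEM and Nalm6 (-0.00). Without single libraries they were, under CHIR-99021 in Nalm6, BTG1 (-0.16 to 0.02), TOB1 (-0.12 to 0.05) and TOB2 (-0.06 to 0.06); between knockout and Nalm6, BTG1 (-0.01 to 0.06), BTG3 (-0.07 to 0.04) and TOB1 (-0.02 to 0.21); between CEM and Nalm6, TOB1 (-0.05 to 0.06); between the untreated Nalm6 groups, BTG2 (-0.02 to 0.14); in the knockout interaction, BTG3 (-0.02 to 0.09); and in the CHIR-99021 difference, BTG1 (-0.08 to 0.10) and TOB2 (-0.01 to 0.10). The causes were not tested.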
